A study of Mus musculus with 6 samples.

Results

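The genes described here are 10 that encode the receptors, synthases and hyaluronidases of hyaluronan, taken by symbol from a raw count table of 24061 gene symbols in sorted mouse mammary macrophages. They are the receptors *Lyve1*, *Cd44*, *Stab1*, *Stab2* and *Hmmr*, the synthases *Has1*, *Has2* and *Has3*, and the hyaluronidases *Hyal1* and *Hyal2*. All 10 were in the table and all 10 passed the filter on low counts. The RNA-seq data came from 6 libraries of CD45+CD11b+F4/80+ cells, 3 of the Lyve-1+ subset and 3 of the Lyve-1- subset, and each library was made from the inguinal mammary glands of 4 pooled FVB/N mice. Replicate 1 of each subset was from mice at 6 weeks of age, and replicates 2 and 3 were from mice at 10 weeks. No transgene or treatment is given for these mice. The subsets were separated by surface Lyve-1 protein alone, and each value stands for a pool rather than for 1 animal.

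Hyaluronan is a long, unsulfated sugar polymer of the extracellular matrix. It is made at the plasma membrane by the HAS enzymes, which use UDP-sugars from the cytosol and push the growing chain out of the cell. Cell surface receptors such as CD44 and LYVE-1 bind it, and stabilin-2 clears it by endocytosis. HYAL2 and HYAL1 cut it, with the small products broken down further in lysosomes. In the mammary gland it is abundant in the stroma around ducts and in the connective tissue of the fat pad and capsule.

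The libraries held between 6478007 and 21406839 counts, so that 3 counts, the limit allowed by a count of 0, corresponded to 0.143 to 0.427 CPM (counts relative to the library total, corrected with TMM normalization factors). These limits cover counting error only. The libraries differed in how many genes they detected, from 11958 genes with a count in Lyve-1- replicate 1 to 20353 in Lyve-1- replicate 3. Of 1122 olfactory receptor genes, which macrophages are not known to use, Lyve-1- replicate 3 had counts for 652, against 4 and 34 in the other libraries of its subset, and Lyve-1+ replicates 1, 2 and 3 had counts for 370, 134 and 5. The olfactory receptor density was computed over a trimmed set of 1058 of these genes (trim of 5%), not over all 1122. It was highest for Lyve-1- replicate 3, at 2.26 counts per kb, with Lyve-1+ replicate 1 next at 0.859. Without the trim the order differed, as Lyve-1+ replicate 2 (density 0.423) had 4160 olfactory receptor counts and Lyve-1+ replicate 1 had 3617. The trimmed density is set beside the counts of each low gene as the number due at that density. The cells of both subsets expressed *Ptprc*, *Itgam* and *Emr1*, which encode the sorted proteins, and the macrophage genes *Csf1r*, *Cd68* and *Mertk*. These 6 summed to 3357.3 to 4731.1 CPM in Lyve-1- and 4024.6 to 4838.5 CPM in Lyve-1+ libraries. Of them, 4 had a positive and 2 a negative log2 fold change, none at an edgeR adjusted p under 0.05. Mean *Ptprc* was 1392.7 CPM in Lyve-1- and 911 CPM in Lyve-1+ libraries, without overlap. *Csf1r* (774 and 1335.0 CPM) and *Cd68* (465 and 765 CPM) lay the other way without overlap. Of lymphatic endothelial markers, *Ccl21a* had no counts in any library. *Mmrn1* had 0, 0 and 80 raw counts in Lyve-1- replicates 1, 2 and 3, and 67, 83 and 105 in the Lyve-1+ replicates. The summed level of all 7 was 14.6 to 59.1 CPM in Lyve-1- and 17.1 to 42.6 CPM in Lyve-1+ libraries.

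The comparison of the subsets asked which components of the hyaluronan system differed between Lyve-1+ and Lyve-1- macrophages. *Lyve1* itself, the gene of the sort marker, was the only one of the 10 genes that passed an adjusted p of 0.05 in edgeR. It rose in Lyve-1+ cells. DESeq2 placed 3 of the 10 genes under 0.05, *Lyve1*, *Stab1* and *Hyal2*, and 259 of all genes. *Stab1* and *Hyal2* were higher, and *Cd44* lower, in all Lyve-1+ libraries than in any Lyve-1- library, without passing the edgeR test. The other 6 genes overlapped between the subsets. Of the 13348 genes tested in edgeR, 60 (0.45%) rose and 24 (0.18%) fell at an adjusted p under 0.05. The stricter limits of the study, an adjusted p under 0.01 with a log2 fold change above 1 and below 10 in size, were passed by 15 (0.112%). None of the 10 genes passed the stricter limits by edgeR's quasi-likelihood test, and 4 had an unadjusted p under 0.05, as did 7.69% of all genes tested. The Lyve-1+ libraries lay wholly above the Lyve-1- libraries for 7.96% of all genes tested and wholly below for 6.32%, against 3 (with *Lyve1*) and 1 of the 10 genes. Of the 10 genes, 6 had a positive and 4 a negative log2 fold change, with a median of 0.31, beside a median of -0.01 over all genes tested.

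**Figure D1:**
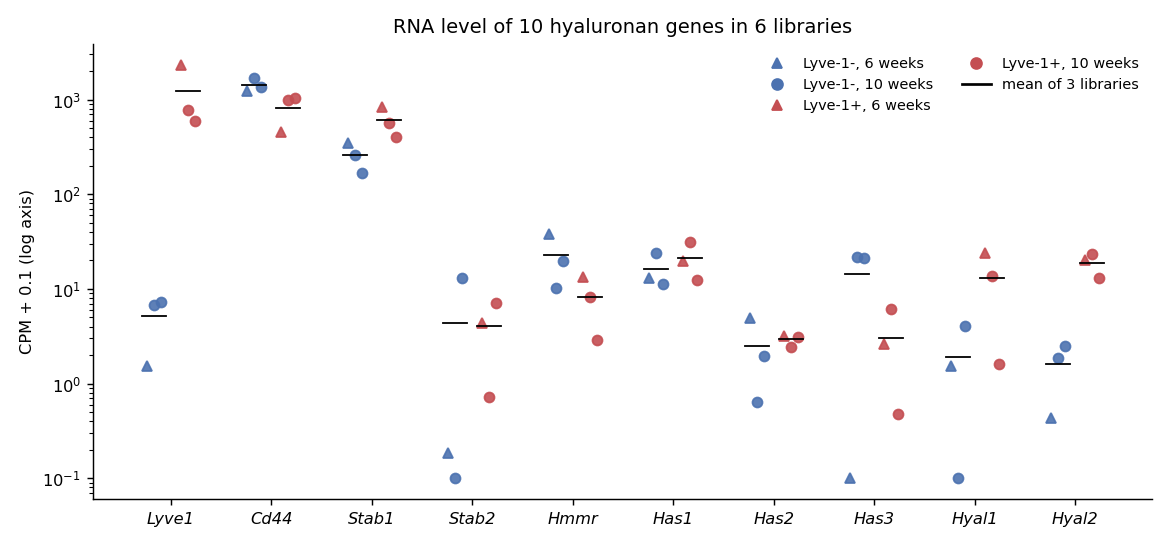
The level of each of the 10 genes in each library, in CPM plus 0.1 on a log axis, with Lyve-1- libraries in blue and Lyve-1+ libraries in red. Triangles are 6-week pools, circles are 10-week pools and black bars are means of 3 libraries. *Lyve1*, *Stab1* and *Hyal2* show no overlap with Lyve-1+ above, *Cd44* shows none with Lyve-1+ below, and the remaining genes overlap.

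*Lyve1* encodes the hyaluronan receptor whose protein was used for the sort, so its RNA is a check of the labels and not a finding. The gene lies on chromosome 7 of GRCm38 (chr7:110850607-110863239, minus strand). Its level was 1.43, 6.65 and 7.26 CPM in Lyve-1- replicates 1, 2 and 3, and 2341.0, 785 and 596 CPM in the Lyve-1+ replicates. The Lyve-1+ libraries were all far above the Lyve-1- libraries, and the 6-week pools held both the highest and the lowest value. Its log2 fold change was 7.93 (SE 0.94, adjusted p = 0.0254 by edgeR's quasi-likelihood test), a 244-fold difference, and DESeq2 gave 7.87 (adjusted p = 2.15e-18). The direction held in all 16 alternative analyses, with log2 fold changes of 6.61 to 8.27, and the adjusted p was under 0.05 in 10 of them. Those above 0.05 included the edgeR fits without Lyve-1- replicate 2 (0.298), Lyve-1- replicate 3 (0.0751), Lyve-1+ replicate 2 (0.12) or Lyve-1+ replicate 3 (0.0527), and with age as a covariate (0.14). The Lyve-1- libraries held 17, 75 and 51 raw counts of *Lyve1*, of which up to 6.59 were due at the olfactory receptor density in replicate 3. In bulk samples, a few Lyve-1+ cells among the Lyve-1- sort and a low level in each cell cannot be told apart.

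*Cd44*, the most widely expressed hyaluronan receptor and one that also carries leukocyte adhesion, was the most abundant of the 10 genes in Lyve-1- cells. It lies at chr2:102811141-102901665 (GRCm38, minus strand). Its level was 1243.9, 1693.0 and 1349.3 CPM in Lyve-1- replicates 1, 2 and 3, and 450, 987 and 1036 CPM in the Lyve-1+ replicates. The 3 Lyve-1+ values were all below the 3 Lyve-1- values, and Lyve-1+ replicate 1, the 6-week pool, was the lowest of the 6. The means were 1428.7 ± 235 CPM and 824 ± 325 CPM (SD, n = 3 each). The difference of -0.80 on the log2 scale (SE 0.30), a 1.74-fold lower level in Lyve-1+ cells, did not pass the test (edgeR adjusted p = 0.422). All 16 alternatives gave a negative log2 fold change, from -1.02 to -0.49, and 1 of them an adjusted p under 0.05. Dendritic and T cells also use *Cd44*. All 6 conventional dendritic cell markers had a negative log2 fold change, with summed levels of 402 to 849 CPM in Lyve-1- and 123 to 364 CPM in Lyve-1+ libraries, and all 5 T cell markers in the table did too, with 160 to 218 CPM against 37.8 to 185 CPM. None of these 11 genes passed an adjusted p of 0.05, and their part in the *Cd44* difference was not tested.

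*Stab1* encodes stabilin-1, a scavenger and endocytic receptor of alternatively activated and tissue-resident macrophages that also binds matrix ligands. It lies at chr14:31139013-31168641 (GRCm38, minus strand). Its level was 349, 257 and 166 CPM in Lyve-1- replicates 1, 2 and 3, and 833, 572 and 406 CPM in the Lyve-1+ replicates. The 3 Lyve-1+ values were all above the 3 Lyve-1- values, and in both subsets the 6-week pool was the highest. The means were 257 ± 91.6 CPM and 604 ± 215 CPM (SD, n = 3 each). Its log2 fold change was 1.23 (SE 0.32), a 2.34-fold higher level in Lyve-1+ cells, with an edgeR adjusted p of 0.145 and a DESeq2 adjusted p of 0.0149. Its sign held in all 16 alternatives, with log2 fold changes of 0.67 to 1.48, and the adjusted p was under 0.05 in 6 of them, among which were edgeR fits that left out Lyve-1- replicate 1 (0.0332) or Lyve-1+ replicate 3 (0.0356). Of 10 fibroblast markers, 9 had a positive log2 fold change and 5 lay wholly above in Lyve-1+ libraries, none passed an adjusted p of 0.05 in edgeR and 3 did in DESeq2. They summed to 1016.6 to 1214.1 CPM in Lyve-1- libraries and to 2394.1, 1812.7 and 7100.5 CPM in Lyve-1+ replicates 1, 2 and 3. Their part in the *Stab1* difference, or in that of any other gene described here, was not tested.

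The promoters of *Cd44* and *Stab1* are shown because these receptors were well measured and lay on opposite sides of the comparison. The sequences are the 250 bases before the RefSeq start on GRCm38.p6, written 5′ to 3′ on the strand of the gene, at chr2:102901666-102901915 and chr14:31168642-31168891. Both windows are marked as lying after the start of an annotated transcript. By the gene positions given above, however, both lie wholly outside the gene, directly before its start. Capitals mark GAGGAA, the core of PU.1 and other ETS factor sites, on either strand, so that TTCCTC is the same motif read from the other strand, and TGCTGA, part of the MAF recognition element. PU.1 and MAF family factors are regulators of macrophage genes.
Cd44: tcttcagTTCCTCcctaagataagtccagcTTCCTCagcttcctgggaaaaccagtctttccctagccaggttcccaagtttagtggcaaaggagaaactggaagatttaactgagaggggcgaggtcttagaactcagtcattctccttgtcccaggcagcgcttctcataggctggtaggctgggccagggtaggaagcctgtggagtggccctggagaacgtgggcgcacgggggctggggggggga
Stab1: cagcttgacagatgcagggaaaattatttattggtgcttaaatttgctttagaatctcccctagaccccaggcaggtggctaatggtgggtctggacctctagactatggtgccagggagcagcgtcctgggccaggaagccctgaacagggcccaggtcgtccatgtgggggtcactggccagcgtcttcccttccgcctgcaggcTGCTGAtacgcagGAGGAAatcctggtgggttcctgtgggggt
The *Cd44* window held 2 copies of GAGGAA and none of TGCTGA, and the *Stab1* window held 1 of each. Of 32851 promoter windows of the same length, 23.3% held GAGGAA and 16.1% held TGCTGA on either strand, without allowing for overlap between motifs. The *Hyal2* window also held 1 GAGGAA, and those of *Hyal1*, *Stab2*, *Hmmr* and *Has1* held neither motif. No window of the 7 genes in the RefSeq table held TGACTCA, the AP-1 motif present in 4.46% of promoters, or TATAAA, the TATA motif present in 12.4%. These matches describe the letters in the windows only, since no binding was measured here.

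*Stab2* encodes stabilin-2, the main hyaluronan clearance receptor of liver and lymph node sinus endothelium, and lies at chr10:86841198-87008025 (GRCm38, minus strand). It had 1, 0 and 90 raw counts in Lyve-1- replicates 1, 2 and 3, and 56, 13 and 56 in the Lyve-1+ replicates. The largest count was in Lyve-1- replicate 3, where 19.8 counts were due at the olfactory receptor density, and the Lyve-1+ libraries had 7.52, 3.71 and 0.0364 counts due. The mean levels were 4.3 ± 7.38 CPM and 3.97 ± 3.22 CPM (SD, n = 3 each), with a log2 fold change of -0.14 (SE 2.24, edgeR adjusted p = 1). Leaving out Lyve-1- replicate 3 turned it to 6.26, and leaving out Lyve-1+ replicate 2 turned it to 0.38. It was also positive with age as a covariate (0.66) and after subtraction of the olfactory receptor density (0.03), so its sign was not settled. The 7 lymphatic endothelial markers summed to 14.6, 26.2 and 59.1 CPM in the Lyve-1- replicates and 17.1, 37.0 and 42.6 CPM in the Lyve-1+ replicates. Of them, *Prox1* had 0, 0 and 45 raw counts in Lyve-1- and 50, 79 and 7 in Lyve-1+ libraries, and *Flt4* had 0, 0 and 95 in Lyve-1- and 22, 103 and 0 in Lyve-1+ libraries. Their part in the *Stab2* counts was not tested.

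*Hmmr* encodes RHAMM, which binds hyaluronan and also the mitotic spindle, and its transcript rises in dividing cells. It lies at chr11:40701395-40733422 (GRCm38, minus strand). Its level was 38.3, 10.1 and 19.7 CPM in Lyve-1- replicates 1, 2 and 3, and 13.3, 8.17 and 2.77 CPM in the Lyve-1+ replicates. The lowest Lyve-1- value, in replicate 2, was below the highest Lyve-1+ value, in replicate 1, so the subsets overlapped. The means were 22.7 ± 14.4 CPM and 8.07 ± 5.25 CPM (SD, n = 3 each), with a log2 fold change of -1.49 (SE 0.83, edgeR adjusted p = 0.813) that ranged from -2.16 to -0.9 over the alternatives. Of 12 proliferation markers, 9 had a negative log2 fold change, with summed levels of 942 to 1391.6 CPM in Lyve-1- and 515 to 737 CPM in Lyve-1+ libraries. The most abundant of them, *Mki67*, was at 762 ± 114 CPM and 407 ± 87.4 CPM (SD, n = 3 each), with a log2 fold change of -0.91 (SE 0.25, edgeR adjusted p = 0.178). None of the 12 passed an adjusted p of 0.05 in edgeR, 2 did in DESeq2, and their part in the *Hmmr* values was not tested.

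**Figure D2:**
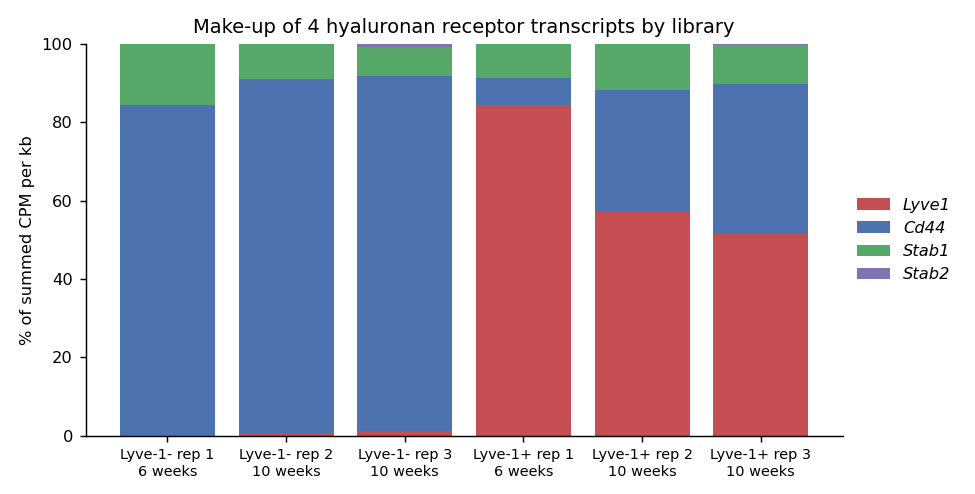
The share of *Lyve1*, *Cd44*, *Stab1* and *Stab2* in the summed level of these receptor transcripts (CPM per kb of exon, in percent) in each of the 6 libraries. *Cd44* takes 84.2% to 90.8% of the Lyve-1- bars, *Lyve1* takes 51.4% to 84.4% of the Lyve-1+ bars, and *Stab2* is barely visible.

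The make-up of the receptor transcripts was compared within each library, on the scale of CPM per kb of exon, which allows genes of different length to be set side by side. *Cd44* made up 84.2%, 90.2% and 90.8% of the summed *Lyve1*, *Cd44*, *Stab1* and *Stab2* level in Lyve-1- replicates 1, 2 and 3. In the Lyve-1+ replicates it made up 6.99%, 31% and 38.5%, and *Lyve1* made up 84.4%, 57.2% and 51.4%. The *Lyve1* share follows from the sort. Apart from *Lyve1*, the ratio of *Cd44* to *Stab1* per kb was 5.41, 9.99 and 12.4 in the Lyve-1- replicates and 0.82, 2.62 and 3.88 in the Lyve-1+ replicates. The ratio was higher in every Lyve-1- library, and in both subsets it was lowest in the 6-week pool. Its means were 9.25 ± 3.53 and 2.44 ± 1.54 (SD, n = 3 each), and the geometric means differed 4.31-fold. No test is given for the ratio, since both genes were already seen not to overlap, in opposite directions.

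The hyaluronidases were low in Lyve-1- cells and higher in most Lyve-1+ libraries. *Hyal2* encodes a membrane-anchored enzyme that cuts long hyaluronan chains at the cell surface, and lies at chr9:107567945-107572779 (GRCm38, plus strand). It had 4, 20 and 17 raw counts in Lyve-1- replicates 1, 2 and 3, and 264, 488 and 104 in the Lyve-1+ replicates. The subsets did not overlap, with 0.336 to 2.42 CPM in Lyve-1- and 13.1 to 23.3 CPM in Lyve-1+ libraries. The means were 1.51 ± 1.07 CPM and 18.8 ± 5.22 CPM (SD, n = 3 each). The difference was 3.63 (SE 1.16) on the log2 scale, a 12.4-fold higher level, with an edgeR adjusted p of 0.289 and a DESeq2 adjusted p of 0.0256. It stayed positive in all 15 alternatives that gave it a value, from 3.1 to 4.15, and DESeq2 was the only one of them with an adjusted p under 0.05. Of the 17 counts in Lyve-1- replicate 3, 7.43 were due at the olfactory receptor density, against at most 2.83 counts in any Lyve-1+ library. The part of the fibroblast markers in the *Hyal2* difference was not tested.

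*Hyal1* encodes the lysosomal hyaluronidase that works on the fragments taken up, and lies next to *Hyal2* at chr9:107576927-107581710 (GRCm38, plus strand). It had 17, 0 and 28 raw counts in Lyve-1- replicates 1, 2 and 3, and 316, 287 and 12 in the Lyve-1+ replicates. Lyve-1+ replicates 1 and 2 were well above the Lyve-1- libraries, but Lyve-1+ replicate 3, with 1.51 CPM, lay among them. The means were 1.8 ± 2.02 CPM and 13.1 ± 11.2 CPM (SD, n = 3 each), with a log2 fold change of 2.84 (SE 1.70, edgeR adjusted p = 0.868) that ranged from 1.94 to 4.18 over the alternatives. Of the exonic bases of *Hyal1*, 50.8% are shared with *Naa80* (listed as *Nat6*) on the same strand, whose own level did not follow *Hyal1*, with 144, 226 and 75 raw counts in the Lyve-1- replicates and 238, 247 and 102 in the Lyve-1+ replicates. Reads over shared exons cannot be assigned to 1 gene, so the counts of *Hyal1* are uncertain. Summed over both enzymes, the level was 1.76, 1.77 and 6.41 CPM in the Lyve-1- replicates and 44, 37 and 14.6 CPM in the Lyve-1+ replicates. The lack of overlap in the sum follows from *Hyal2*, which gave 13.1 CPM of the sum in Lyve-1+ replicate 3, and adds nothing on *Hyal1*.

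**Figure D3:**
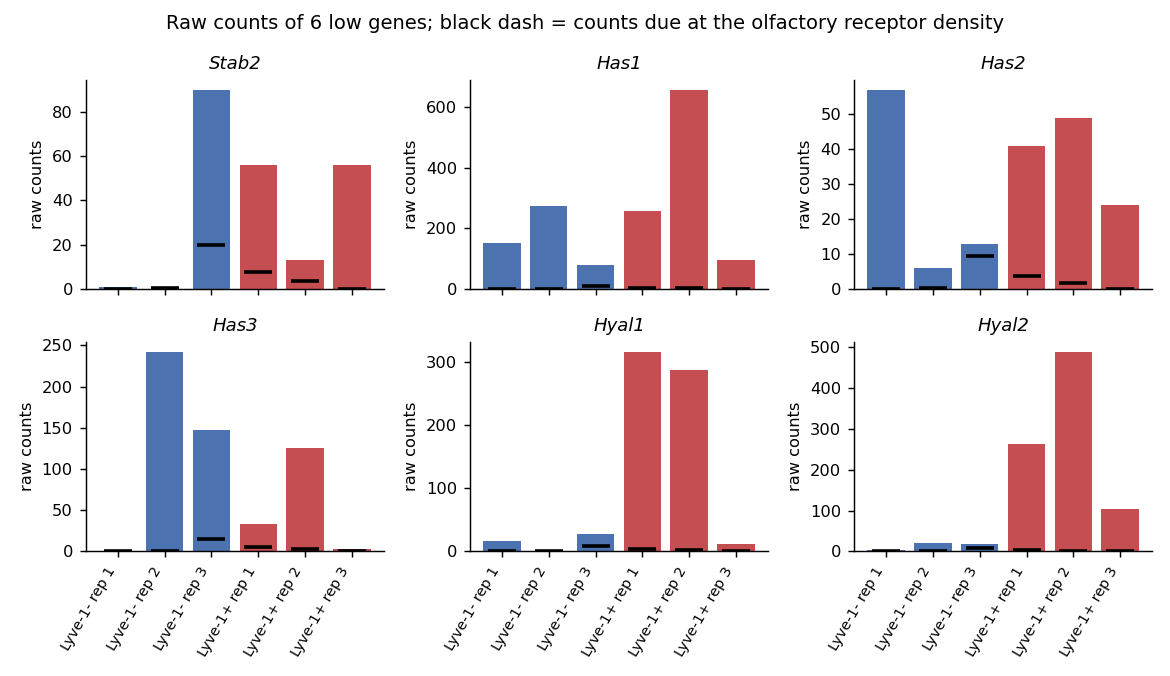
Raw counts of the 6 low genes *Stab2*, *Has1*, *Has2*, *Has3*, *Hyal1* and *Hyal2* in each library, Lyve-1- in blue and Lyve-1+ in red, with a black dash at the counts due at the olfactory receptor density of that library. The dash nearly reaches the bar for *Has2* in Lyve-1- replicate 3, where 9.56 of 13 counts were due, and lies far below the *Hyal2* bars of the Lyve-1+ libraries.

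No synthase gene differed in level between the subsets by more than the spread between libraries. *Has1*, the least active of the synthases as an enzyme, was the most abundant of them per kb by mean in both subsets, and lies at chr17:17843323-17855205 (GRCm38, minus strand). Its level was 12.8, 24.1 and 11.1 CPM in Lyve-1- replicates 1, 2 and 3, and 19.6, 31.4 and 12.2 CPM in the Lyve-1+ replicates. The subsets overlapped, and replicate 2 was the highest in both. Its log2 fold change was 0.39 (SE 0.67, edgeR adjusted p = 1), and leaving out Lyve-1+ replicate 2 gave -0.04. *Has1* made up 71.6%, 60.5% and 39.8% of the summed synthase level per kb in the Lyve-1- replicates and 79.4%, 82.3% and 77.8% in the Lyve-1+ replicates. In Lyve-1- replicate 3 the other synthases together were above it. This share was higher in every Lyve-1+ library than in any Lyve-1- library, and the difference in share was not tested.

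*Has2*, the synthase that makes most of the hyaluronan of mesenchymal tissue, lies at chr15:56665627-56694539 (GRCm38, minus strand). It had 57, 6 and 13 raw counts in Lyve-1- replicates 1, 2 and 3, and 41, 49 and 24 in the Lyve-1+ replicates. Its highest and its lowest level were both in Lyve-1- libraries, at 4.78 CPM and 0.532 CPM, and the Lyve-1+ libraries lay between 2.34 and 3.11 CPM. Its log2 fold change was 0.23 (SE 2.14, edgeR adjusted p = 1). The 8 mammary epithelial markers all had a negative log2 fold change, none at an adjusted p under 0.05. They summed to 433, 55.8 and 211 CPM in Lyve-1- replicates 1, 2 and 3, and 103, 112 and 46.3 CPM in the Lyve-1+ replicates. Their part in the *Has2* values was not tested. *Has2os*, the antisense transcript that shares 4.3% of its exonic bases, had no counts in any library.

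*Has3*, which makes shorter chains, lies at chr8:106870242-106884566 (GRCm38, plus strand). It had 0, 242 and 147 raw counts in Lyve-1- replicates 1, 2 and 3, and 33, 126 and 3 in the Lyve-1+ replicates. The 10-week Lyve-1- libraries, at 21.5 and 20.9 CPM, were the highest of the 6, and the 6-week Lyve-1- library, with no counts, was the lowest. Its log2 fold change was -2.25 (SE 1.66, edgeR adjusted p = 0.981), and it ranged from -3.3 to -1.18 over the alternatives. *Has3* shares 352 exonic bases, 5.52% of its own, with *Chtf8* on the opposite strand, and the strand setting of the counting is not given in the sources used here.

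**Figure D4:**
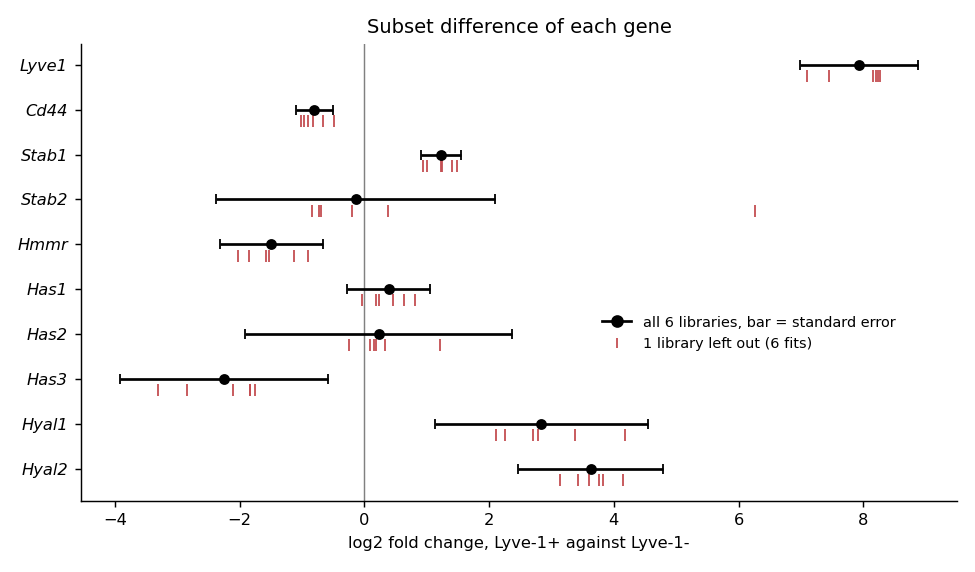
The log2 fold change of each gene, Lyve-1+ against Lyve-1-, with its standard error over all 6 libraries in black and the 6 values with 1 library left out as red ticks. *Stab2*, *Has1* and *Has2* cross 0 when a library is left out, and 1 tick of *Stab2* lies at 6.26 (without Lyve-1- replicate 3).

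On the scale of CPM per kb, the level in Lyve-1- cells was highest for *Cd44* (211 ± 34.7), followed by *Stab1* (25 ± 8.9) and *Hmmr* (4.18 ± 2.64), and the intervals of 1 SD around these means did not overlap. Below *Hmmr* came *Has1*, *Has3*, *Lyve1*, *Has2*, *Stab2*, *Hyal1* and *Hyal2*, from 3.55 ± 1.57 down to 0.459 ± 0.324, and each overlapped its neighbour. In Lyve-1+ cells the order was *Lyve1* (425 ± 328), *Cd44* (122 ± 48) and *Stab1* (58.7 ± 20.9), each overlapping the next within 1 SD. A gap set *Stab1* apart from *Hyal2* (5.71 ± 1.59), and *Has1*, *Hyal1*, *Hmmr*, *Has2*, *Has3* and *Stab2* followed with overlapping intervals, down to 0.453 ± 0.368. The hyaluronidase *Hyal2* was last of the 10 in Lyve-1- cells by mean level, and in Lyve-1+ cells only the receptors *Lyve1*, *Cd44* and *Stab1* were above it.

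The subset difference was also compared between ages. For *Lyve1*, the log2 difference between Lyve-1+ and Lyve-1- (log2 CPM with a prior count of 2) was 10.53 at 6 weeks and 6.57 at 10 weeks. The interaction of subset and age was -4.06 on the log2 scale (SE 0.58, edgeR adjusted p = 0.0466). In this main fit *Lyve1* was the only gene of the 13348 tested (0.00749%) below 0.05 for the term. It was not alone in other fits, as DESeq2 placed 58 genes below 0.05 and edgeR with no filter placed 19. The *Lyve1* interaction kept its sign in 6 alternative analyses, at -4.23 to -3.84 on the log2 scale. The 6-week value of each subset came from 1 pool, so age and the pool cannot be told apart, and the spread was estimated from the 10-week pairs. *Cd44* had log2 differences of -1.46 at 6 weeks and -0.59 at 10 weeks, *Stab1* 1.26 and 1.21, *Hmmr* -1.51 and -1.54, *Hyal1* 3.93 and 2.52, and *Hyal2* 5.33 and 2.96. For these genes the interaction did not pass 0.05 in edgeR. *Has3* turned from 4.01 at 6 weeks to -3.56 at 10 weeks, following its 0 counts in the 6-week Lyve-1- library, with an edgeR adjusted p of 0.976 (0.0368 to 1 over 6 alternative analyses).

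With both subsets in 1 model, none of the 10 genes differed between 10-week and 6-week libraries (edgeR adjusted p = 1 for each), against 3 of all genes tested (0.0225%), and DESeq2 called none of the 10 either. Of the 10 genes, *Cd44* and *Stab1* had an unadjusted p under 0.05, as did 3.33% of all genes. The log2 change from 6 to 10 weeks was 0.71 (SE 0.27) for *Cd44* and -0.74 (SE 0.27) for *Stab1*. *Cd44* was lower in the 6-week pool than in both 10-week pools of either subset, and *Stab1* was higher. For *Lyve1* the age change was -0.41, and it was -1.75 when Lyve-1- replicate 1 was left out (edgeR adjusted p = 0.00859), since the subsets moved in opposite directions.

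The other genes that make, bind and break down hyaluronan were examined as 6 lists. Over all 6 libraries, no gene of these lists passed an adjusted p of 0.05 in the main edgeR fit or in DESeq2. Of 7 other hyaluronidases and related proteins, 2 passed the filter. *Cemip2* (listed as *Tmem2*), a transmembrane protein required for hyaluronan breakdown at the cell surface, was the abundant one, at 123, 86.7 and 85.0 CPM in the Lyve-1- replicates and 186, 128 and 158 CPM in the Lyve-1+ replicates. The subsets did not overlap, with a log2 fold change of 0.67 (SE 0.30, edgeR adjusted p = 0.61). *Hyal3* was at 1.85 ± 0.717 CPM and 0.43 ± 0.744 CPM (SD, n = 3 each). *Hyal4*, *Hyal5*, *Hyal6*, *Spam1* and *Cemip* did not pass the filter.

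Of the lysosomal exoglycosidases, which remove single sugars from hyaluronan fragments and other glycans, *Hexa*, which encodes a subunit of beta-hexosaminidase, was at 275 ± 48.2 CPM in Lyve-1- and 423 ± 52.7 CPM in Lyve-1+ cells (SD, n = 3 each). The subsets did not overlap, with a log2 fold change of 0.62 (SE 0.25, edgeR adjusted p = 0.534). *Gusb*, the beta-glucuronidase, overlapped, at 143 ± 47.9 CPM and 156 ± 10.8 CPM.

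Of 17 hyaluronan-binding matrix and soluble proteins, 9 were tested, 5 with a positive and 4 with a negative log2 fold change and a median of 0.10. *Tnfaip6*, which encodes TSG-6, the enzyme-like protein that links inter-alpha-inhibitor heavy chains to hyaluronan, was at 10.1, 19.7 and 5.56 CPM in the Lyve-1- replicates and 32.6, 29.3 and 34.1 CPM in the Lyve-1+ replicates. The subsets did not overlap, and the log2 fold change was 1.44 (SE 0.63, edgeR adjusted p = 0.582). Among the heavy chains, *Itih5* was at 24 ± 0.131 CPM and 55.5 ± 12 CPM (SD, n = 3 each) and did not overlap, with a log2 fold change of 1.20 (SE 0.43, edgeR adjusted p = 0.393). The part of the fibroblast markers in the *Tnfaip6* and *Itih5* differences was not tested. *Itih2* lay the other way, at 21.5, 4.26 and 3.7 CPM in Lyve-1- and 0.758, 0.764 and 0 CPM in Lyve-1+ libraries. *Vcan*, the large hyaluronan-binding proteoglycan versican, overlapped between the subsets, at 112 ± 96.3 CPM and 120 ± 70.2 CPM, and *Itih1* had a log2 fold change of -1.43.

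Of 6 other hyaluronan-binding proteins of cells, 5 were tested, with 3 at a positive log2 fold change. *Tlr4*, the endotoxin receptor also studied as a sensor of hyaluronan fragments, was at 26.8, 42.3 and 12.1 CPM in the Lyve-1- replicates and 79.0, 88.8 and 66.3 CPM in the Lyve-1+ replicates. It did not overlap, with a log2 fold change of 1.52 (SE 0.46, edgeR adjusted p = 0.242). *Tlr2*, the lipopeptide receptor, overlapped, at 328 ± 124 CPM and 246 ± 99.9 CPM (SD, n = 3 each). *Layn*, the receptor layilin, and *Habp4* had log2 fold changes of 0.93 and -0.68.

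All 7 genes of UDP-sugar precursor synthesis were tested, 5 with a positive and 2 with a negative log2 fold change and a median of 0.13. *Ugp2*, which makes UDP-glucose, was at 31.7 ± 5 CPM and 60 ± 23.6 CPM, and *Gnpnat1*, an enzyme of the hexosamine pathway, was at 1.36 ± 1.18 CPM and 12.9 ± 7.89 CPM (SD, n = 3 each), both without overlap. Their log2 fold changes were 0.91 (SE 0.43, edgeR adjusted p = 0.655) and 3.23 (SE 1.66, edgeR adjusted p = 0.728). *Gnpnat1* had only 0, 22 and 15 raw counts in Lyve-1- replicates 1, 2 and 3, and 120, 161 and 175 in the Lyve-1+ replicates. *Gfpt1*, the first and rate-limiting enzyme of the hexosamine pathway, lay the other way without overlap, at 158 ± 31.7 CPM and 95.8 ± 24.7 CPM, with a log2 fold change of -0.73 (SE 0.31, edgeR adjusted p = 0.558). *Ugdh*, which makes UDP-glucuronic acid, overlapped, at 45.6 ± 13 CPM and 42.4 ± 12.2 CPM. Of the 4 proteins that connect CD44 to the cytoskeleton, 3 had a negative log2 fold change, none was without overlap, and *Ezr*, which encodes ezrin, was at 450 ± 205 CPM and 246 ± 176 CPM, with an edgeR adjusted p of 0.837 (0.0443 without Lyve-1+ replicate 3, at a log2 fold change of -1.67). *Rdx* was at -0.23 and *Nf2* at 0.46 on the log2 scale.

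The genes whose centred log2 profile over the 6 libraries lay nearest to each of the 10 were found among all genes tested, with the root mean square difference as the measure. Nearest to *Lyve1* were *Cd209g*, *Fcna* and *Zfyve21*, at 1.52, 1.76 and 1.76 on the log2 scale, farther than the nearest profiles of the other 9 genes. *Cd44* had *Sowahc*, *Nod2* and *B4galnt1* at 0.11, 0.15 and 0.15, and *Stab1* had *Tuba1b*, *Tgfbrap1* and *Kifc3* at 0.09, 0.13 and 0.13. *Hyal2* had *Ggact*, *Ctla2b* and *Enpep* at 0.23, 0.33 and 0.52, and *Hyal1* had *Ddah1*, *Tnfrsf25* and *Tsfm* at 0.57, 0.58 and 0.70. *Hmmr* lay nearest to *Slc35a1*, *Cep57* and *Zmym6* at 0.24, 0.26 and 0.26. *Has1* had *Hdac2*, *Ckap5* and *Plin2* at 0.14, 0.16 and 0.18, and *Has2* had *Sucla2*, *Zcchc17* and *5730455P16Rik* at 0.18, 0.18 and 0.23. *Has3* had *Gm5150*, *D430019H16Rik* and *Cd96* at 0.43, 0.50 and 0.51, and *Stab2* had *Irx2*, *Pnmal2* and *Thbs4* at 0.31, 0.35 and 0.38. With 6 libraries and 13348 genes to choose from, close profiles of this kind are a description of these libraries.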

How the data were processed

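Macrophage RNA was made into libraries with a stranded total RNA kit. The authors mapped paired 50-bp reads to mm10 (GRCm38) with HISAT2 2.0.2, counted them per gene symbol with featureCounts 1.5.0 and deposited raw counts, without normalization. The methods name a 300-bp minimum gene length and the removal of a 6-week library as an outlier. Positions and exonic lengths came from GENCODE M21, with 22749 symbols matched directly and 943 by synonym, and promoters from RefSeq. In R 4.3.3, edgeR 4.0.16 (with limma 3.58.1) filtered the genes by filterByExpr and normalized them by TMM, DESeq2 1.42.0 served as the other tool, and edgeR's robust quasi-likelihood F test compared the subsets, with Benjamini-Hochberg adjustment over all 13348 genes tested. Age was tested beside subset, and their interaction in a further model. The tests were tried on simulated counts. Pools were the replicates, so p-values measure the spread between these pools. The 10 genes, lists and naming rule were chosen with earlier results of these data known. Named were the 10 genes, chosen pathway genes, the 2 largest rises and falls of each list, macrophage and abundant markers, and the nearest profiles. The values of 1 list gene are not reported here. Alternatives were another tool, scaling or filter, a block for the replicate number, an age covariate, the 10-week pools alone, subtraction of the olfactory receptor density and each library left out. Leaving out both libraries with the highest olfactory receptor density, and the *Lyve1* interaction alternatives, were chosen after seeing the data.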

Additional observations from a re-analysis of the deposited data

Results flagged for a closer look

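The subset difference of *Lyve1* differed between 6 and 10 weeks by an interaction term of -4.06 on the log2 scale (edgeR adjusted p = 0.0466). It was larger in the 6-week pair of pools, where Lyve-1+ cells had the highest and Lyve-1- cells the lowest level. *Lyve1* encodes the sort marker, and each subset had 1 pool at 6 weeks. *Has2* had log2 differences of opposite sign at the 2 ages, -0.59 at 6 weeks and 1.24 at 10 weeks, and the interaction did not pass the test (edgeR adjusted p = 1). *Has3* also had opposite signs, 4.01 at 6 weeks and -3.56 at 10 weeks, with an edgeR adjusted p of 0.976 for the interaction and 0.0368 to 1 over 6 alternative analyses. Both synthases had low counts in several libraries, and the 6-week Lyve-1- library had no *Has3* counts.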

How the results depend on the processing

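With 3 pools per subset and a common biological coefficient of variation of 0.931, the counts of genes called depended on the tool, the filter and single libraries. The 15 genes called became 141 with DESeq2, 188 with no filter, 32 with at least 10 counts in every library and 58 with age as a covariate, and ranged from 1 (without Lyve-1- replicate 3) to 81 with 1 library left out. Both scalings, the 10-week libraries alone and subtraction of the olfactory receptor density left 15 to 18. The 84 genes at an adjusted p under 0.05 became 259, 289 and 130 with DESeq2, no filter and age as a covariate, 39 in the 10-week libraries alone, and ranged from 19 to 153 with 1 library left out. Without both libraries of the highest olfactory receptor density, edgeR called 0 and placed 3 under 0.05, with 639 at an unadjusted p under 0.05. The age count of 3 became 35 with DESeq2, 19 with no filter and 8 with at least 10 counts in every library, and ranged from 2 to 35 with 1 library left out. The interaction count of 1 became 58 with DESeq2 and 19 with no filter, and ranged from 10 to 181 with a 10-week library left out. Without a 6-week library it cannot be estimated. The cause of these shifts was not tested.

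The deviations of same-numbered libraries of the subsets had correlations of -0.05, 0 and -0.15. With 3 pools per subset, these values cannot decide whether the numbers pair the libraries, and the sources do not state it. With the replicate block, 140 genes were called and 270 had an adjusted p under 0.05, the log2 fold change of *Stab1* was 1.22 (adjusted p = 0.00225), that of *Cd44* -0.88 (0.0295), that of *Tlr4* 1.68 (0.0441) and that of *Lyve1* 7.73 (0.439), and *Stab2* and *Itih1* turned to 3.56 and 0.44.

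For the subset comparison, 132 of 154 alternative values of the 10 genes kept their sign and side of 0.05, 6 lost and 8 gained significance, and 8 changed sign, in *Stab2*, *Has1* and *Has2*. *Stab2* was 0.66 with age as a covariate, 0.03 after subtraction of the olfactory receptor density and -0.84 to 6.26 with 1 library left out. *Has1* ranged from -0.04 to 0.81 and *Has2* from -0.24 to 1.22 with 1 library left out, and *Has2* was -0.01 without both libraries of the highest olfactory receptor density. With age, the values with 1 library left out ranged from -1.75 to 2.31 for *Lyve1*, -1.02 to 6.11 for *Stab2*, -0.04 to 0.55 for *Has1*, -3.15 to 0.5 for *Hyal1* and -0.12 to 2.64 for *Hyal2*. Of the pathway genes, *Vcan* was -0.01 with age as a covariate and -0.38 to 1.08 with 1 library left out, *Itih1* 1.01 in the 10-week libraries alone and -2.96 to 0.73, *Ugdh* 0.20 and -0.35 to 0.1, and *Gusb* -0.19 without both libraries of the highest olfactory receptor density and -0.11 to 0.32 with 1 library left out.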
